A study of Mus musculus with 77 samples.

Results

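Wnt proteins are secreted ligands that bind Frizzled receptors. With the co-receptors Lrp5 and Lrp6, they act through Dishevelled proteins to release beta-catenin from a destruction complex built on Axin. Beta-catenin then works with the transcription factors of the Tcf and Lef family, while Dkk and Sfrp proteins block the pathway outside the cell. Other Wnt signals act without beta-catenin on cell polarity, and in the brain Wnt ligands are known for roles in synapse formation, axon growth and the growth of blood vessels. The genes described here are all probe sets whose only annotated symbol is a Wnt, Fzd, Dkk, Sfrp, Lrp5, Lrp6, Axin, Dvl, Tcf7 or Lef1 gene name. The rule reads symbols and no measured value, but it was set with earlier results of these data known. The rule took 95 of 45101 probe sets, which stand for 48 of 18194 genes.

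The study profiled striatal spiny projection neurons in a mouse model of Parkinson's disease and of the involuntary movements that levodopa brings on. Adult male mice of the C57BL/6J background, 9 to 14 weeks old, carried one of a pair of BAC transgenes, each present as a single line. In Drd1::EGFP-L10a mice (line CP73) the Drd1 promoter marks ribosomes of direct-pathway neurons (dSPN), and in Drd2::EGFP-L10a mice (line CP101) the Drd2 promoter marks those of indirect-pathway neurons (iSPN) and, as is known for Drd2, of cholinergic interneurons. Tagged ribosomes were pulled down from the dorsal striatum on the operated side of single animals (translating ribosome affinity purification, TRAP), and the bound RNA was hybridised to Affymetrix 430 2.0 arrays.

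Each line had 4 groups, and all mice received injections. Mock-operated mice had vehicle (ascorbate in saline) injected into the right medial forebrain bundle and then chronic saline, with 10 dSPN and 10 iSPN arrays. Lesioned mice had 6-hydroxydopamine (6-OHDA, 3.2 µg/µl), a toxin that destroys dopamine axons, in the same place. They then received chronic saline (11 dSPN and 7 iSPN arrays), low levodopa of 1 mg/kg on the first days and then 2 mg/kg (12 and 8 arrays), or high levodopa of 3 mg/kg and then 6 mg/kg (11 and 8 arrays). Levodopa came with benserazide at 12 mg/kg. Lesioned mice had been selected by their turning and limb use, so the lesioned groups hold only mice with marked motor asymmetry. Lesioned saline mice are the controls for both doses and the test group for the lesion, so those comparisons share arrays.

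Values are deposited RMA expression levels on a log2 scale, in which a difference of 1 is a doubling. Each gene was read from its brightest single-symbol probe set, and 37 of the 48 genes had a mean above the filter level of 3.55. Those 37 were tested together with all 13271 genes above that level, and a gene is said to have risen or fallen where its Benjamini-Hochberg adjusted p from limma was below 0.05. By role the tested genes are 15 of 19 ligands, 9 of 12 receptors and co-receptors, 4 of 8 secreted inhibitors, all 5 cytoplasmic proteins, all 3 transcription factors and Fzd10os, an antisense RNA of Fzd10 that the symbol rule also took. The 11 genes below the filter, by their mean level over all arrays, were the ligands Wnt1 (3.01), Wnt3 (3.48), Wnt8a (3.05) and Wnt16 (3.19), the receptors Fzd4 (3.07), Fzd8 (3.28) and Fzd10 (3.29), and the inhibitors Dkk1 (2.77), Dkk2 (3.41), Sfrp2 (3.54) and Sfrp4 (2.69). No test was made for them, and levels of different probe sets were not ranked against each other. In bulk RNA of this kind, fewer cells of a type and less RNA per cell cannot be told apart.

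The labels were checked first: in mock-operated mice all 8 dSPN markers were higher in dSPN and all 5 tested iSPN markers were lower. Glial RNA was present in every group, and its level moved with some of the comparisons below. Array titles carry a serial number and an animal number, and the animal numbers rise within 7 stretches of the serial number. These stretches are called runs here, and no source used here says what they are. Every run lies within 1 line. Of the 10 mock iSPN arrays 9 lie in run 5, which holds 1 lesioned saline array. Of the 12 low-dose dSPN arrays 11 lie in run 3, which holds no lesioned saline array.

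Wnt7a, a ligand known for promoting synapses and brain vessels, kept every call it had when any single array was left out and under every alternative setting that could be fitted. Its other probe sets had means of 3.12 and 2.34 over all arrays, below the filter level, and were not tested. In dSPN their group means were 3.07 and 2.49 with saline and 3.18 and 2.40 with high levodopa. In iSPN they were 3.05 and 2.37 in mock-operated and 3.04 and 2.19 in lesioned saline mice. All Wnt7a values below come from its brightest probe set. In dSPN its level was 6.07 at the lowest, 6.71 at the median and 7.12 at the highest in mock-operated mice, and 5.87, 6.45 and 7.12 after lesion and saline. With low levodopa the same 3 values were 3.99, 4.84 and 5.59, and with high levodopa they were 4.13, 4.54 and 5.16. Every array of either levodopa group therefore lay below every lesioned saline array. In iSPN the values were 7.27, 7.98 and 8.64 in mock-operated mice, 4.18, 6.44 and 7.16 after lesion and saline, 6.10, 6.75 and 7.04 with low levodopa, and 5.46, 6.47 and 7.77 with high levodopa. There the step lay between mock and lesion, and the 3 lesioned groups overlapped.

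**Figure D1:**
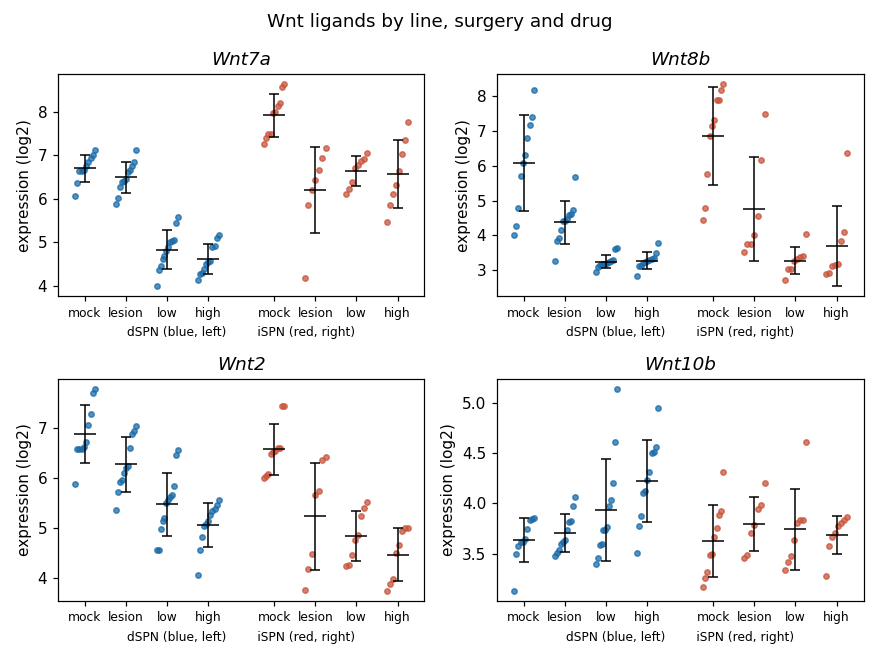
Expression level (log2) of Wnt7a, Wnt8b, Wnt2 and Wnt10b on each array (points), with group mean and SD (black bars), for mock with saline, lesion with saline, lesion with low and lesion with high levodopa in dSPN (blue) and iSPN (red). Wnt7a medians in dSPN are 6.71 and 6.45 without levodopa and 4.84 and 4.54 with it, while in iSPN the median is 7.98 in mock-operated mice and 6.44 after lesion.

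The promoters of 4 of the ligands that changed at the high dose in dSPN are shown. Of these, Wnt7a and Wnt8b fell and Wnt10b and Wnt11 rose. The 4 were picked by hand, and Wnt2 and Wnt2b, which also fell there, are not shown. No difference between promoters of genes that rose and fell was tested. Each is the stretch of 250 bases before the start of transcription in the RefSeq table for GRCm38.p6, written 5′ to 3′ on the gene's own strand. Capitals mark matches on either strand to TGACG, the core of the cAMP response element, or to CTTTGA or CTTTGT, forms of the site bound by Tcf and Lef factors. The regions are chr6:91411354-91411603 on the minus strand for Wnt7a, chr19:44493222-44493471 on the plus strand for Wnt8b, chr15:98778151-98778400 on the minus strand for Wnt10b, and chr7:98834862-98835111 on the plus strand for Wnt11, the first of 2 Wnt11 starts in the table.
Wnt7a: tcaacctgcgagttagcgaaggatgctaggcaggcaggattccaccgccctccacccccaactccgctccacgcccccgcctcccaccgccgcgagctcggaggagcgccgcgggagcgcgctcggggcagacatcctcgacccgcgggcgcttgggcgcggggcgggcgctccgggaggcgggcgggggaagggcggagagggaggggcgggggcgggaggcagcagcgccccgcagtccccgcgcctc
Wnt8b: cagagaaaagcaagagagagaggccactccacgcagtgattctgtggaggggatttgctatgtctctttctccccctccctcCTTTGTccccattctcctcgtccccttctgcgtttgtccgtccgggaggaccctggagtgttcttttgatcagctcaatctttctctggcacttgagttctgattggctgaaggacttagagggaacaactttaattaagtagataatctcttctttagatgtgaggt
Wnt10b: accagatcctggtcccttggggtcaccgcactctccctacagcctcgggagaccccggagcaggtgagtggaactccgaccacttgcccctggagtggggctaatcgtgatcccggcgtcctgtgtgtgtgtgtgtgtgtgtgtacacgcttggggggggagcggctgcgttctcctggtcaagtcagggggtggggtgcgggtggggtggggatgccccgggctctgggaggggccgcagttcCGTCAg
Wnt11: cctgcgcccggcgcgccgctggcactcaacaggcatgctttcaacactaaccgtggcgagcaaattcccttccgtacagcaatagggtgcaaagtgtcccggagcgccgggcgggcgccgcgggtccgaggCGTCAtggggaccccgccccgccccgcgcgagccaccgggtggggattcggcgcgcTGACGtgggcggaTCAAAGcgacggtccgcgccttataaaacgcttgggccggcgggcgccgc
The Wnt7a stretch had no match to any of these letters, and 77.6% of its bases were G or C. The Wnt8b stretch had 1 CTTTGT match and 48.4% G or C. The Wnt10b stretch had 1 TGACG match, which begins 6 bases before the start. The Wnt11 stretch had 2 TGACG matches, which begin 119 and 63 bases before the start, and 1 CTTTGA match. Among all 32851 listed promoters, 17.8% held TGACG, 13.8% CTTTGA and 16.5% CTTTGT in the same window. Of the 39 listed promoters of 32 member genes, 5 held TGACG, 5 CTTTGA and 8 CTTTGT, and none held the full palindrome TGACGTCA, which 1.55% of all promoters held. Of the 19 listed promoters of members called in any comparison, 4 held TGACG, 4 CTTTGA and 6 CTTTGT. A match is a run of letters and not a measured binding site.

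High levodopa in dSPN gave the largest number of member calls among the lesion and dose comparisons. Of 37 genes 8 were called (21.6%), against 45.6% of all genes tested. Among the members 4 rose and 4 fell, against 20.1% and 25.5% of all genes. Wnt7a fell by 1.88 (SE 0.22, adjusted p = 3.06e-11), a 3.68-fold lower level, with no overlap between 11 and 11 arrays, as was seen for 11.4% of all genes. The other 3 that fell were also ligands. Wnt2, a ligand known from lung and vessel development, had values of 5.36, 6.20 and 7.05 (lowest, median, highest) with saline and 4.06, 5.14 and 5.56 with high levodopa. It fell by 1.21 (SE 0.26, adjusted p = 6.01e-05), and all 11 high-dose arrays lay below the saline median although the groups overlapped. Wnt8b, known for forebrain patterning, had 3.26, 4.42 and 5.68 with saline and 2.83, 3.27 and 3.79 with high levodopa. It fell by 1.10 (SE 0.40, adjusted p = 0.0205), to levels around or below the filter level. Its second probe set changed by -0.09, which was not called.

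Wnt2b, a ligand close to Wnt2, was 4.60, 5.64 and 7.20 with saline and 4.03, 4.87 and 5.97 with high levodopa, a change of -0.85 (SE 0.36, adjusted p = 0.0475). This call is near the threshold. It was lost without any single one of 14 of the 22 arrays, namely saline arrays 1, 7, 10, 13, 17, 19 and 20 and high-dose arrays 16, 18, 21, 22, 24, 25 and 34 by serial number, with changes from -0.71 to -0.87 and adjusted p from 0.0507 to 0.11.

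The members that rose at the high dose in dSPN did so by less than 1 log2 unit on their brightest probe sets. Lrp6, the co-receptor that passes the Wnt signal towards beta-catenin, was 8.61, 9.13 and 9.64 with saline and 9.48, 9.77 and 9.97 with high levodopa. It rose by 0.59 (SE 0.13, adjusted p = 0.000156), and all 11 high-dose arrays lay above the saline median. Its second probe set rose by 1.12. Wnt10b, a ligand that signals through beta-catenin, was 3.48, 3.64 and 4.06 with saline and 3.51, 4.23 and 4.94 with high levodopa, and rose by 0.51 (SE 0.15, adjusted p = 0.00256). Fzd6, a Frizzled receptor known for hair and tissue polarity, was 3.51, 3.96 and 4.08 against 4.04, 4.22 and 4.72 and rose by 0.37 (SE 0.10, adjusted p = 0.000964). Its other probe sets lay below the filter level and were not tested. The group mean of 1 went from 3.16 with saline to 2.84 with high levodopa, the opposite sign. The other went from 2.985 to 3.14. Wnt11, a ligand mostly known for signalling without beta-catenin, was 4.08, 4.27 and 4.58 against 4.36, 4.50 and 4.82. It rose by 0.22 (SE 0.08, adjusted p = 0.014), and its second promoter is not shown.

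The high-dose differences were close to these within run 2, which holds 9 high-dose and 6 lesioned saline arrays. There Wnt7a differed by -1.82, Wnt2 by -1.14, Wnt8b by -1.09, Wnt2b by -0.86, Lrp6 by 0.54, Wnt10b by 0.53, Fzd6 by 0.45 and Wnt11 by 0.26. With the block on runs 7 of the 8 kept their calls and Wnt2b did not (-0.74, adjusted p = 0.147). Glial RNA moved with the drug in dSPN. Of 7 oligodendrocyte markers 6 fell at the high dose, and the log2 of their summed level was 11.51 to 12.69 with saline and 10.42 to 11.37 with high levodopa. Of 8 astrocyte markers 4 fell, and their sum went from 9.70 to 10.53 with saline to 8.44 to 10.11, with overlap. The shares called were 85.7% of oligodendrocyte and 50% of astrocyte markers. Among all genes 45.6% were called at this dose and 25.5% fell. All tested markers of both lists lay above the filter level. Of the other marker lists, none of 5 microglial and none of 5 endothelial and mural markers was called at the high dose, and 1 of 4 ependymal markers rose and 1 of 4 GABA interneuron markers fell. Of 5 iSPN markers 3 fell and 1 rose, with a median change of -0.72, while the log2 of their sum was 11.34 to 11.81 with saline and 11.79 to 12.13 with high levodopa. Of 8 dSPN markers 2 rose and 3 fell (summed level 13.69 to 14.01 with saline and 13.85 to 14.08 with high levodopa). The part of these neuronal markers in the members' changes was not tested. With the mean levels of both lists as covariates, Wnt7a (-1.82, adjusted p = 7.67e-07), Wnt2 (-1.38, 0.000899), Lrp6 (1.05, 1.61e-07) and Fzd6 (0.36, 0.024) were still called. Wnt8b (-1.16, adjusted p = 0.0922), Wnt10b (0.47, 0.0544), Wnt2b (-0.66, 0.308) and Wnt11 (0.13, 0.351) were not.

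Low levodopa in dSPN changed 4 of 37 members (10.8%), against 34.1% of all genes. Of the 4, 1 was higher and 3 were lower, against 15.1% and 19% of all genes. Wnt7a fell by 1.67 (SE 0.22, adjusted p = 1.53e-09), again with no overlap, which 4.8% of all genes showed. Wnt8b, at 2.95, 3.20 and 3.63 with low levodopa, fell by 1.12 (SE 0.39, adjusted p = 0.0202), while its second probe set changed by -0.15 without a call. Wnt2, at 4.55, 5.54 and 6.58, fell by 0.80 (SE 0.25, adjusted p = 0.00863), and 2 of 12 low-dose arrays lay above the saline median. Lrp6, at 9.07, 9.39 and 10.01, rose by 0.34 (SE 0.13, adjusted p = 0.0364), with 10 of 12 arrays above the saline median, and its second probe set rose by 0.78. That call of Lrp6 was lost without any single one of 8 arrays, saline arrays 7, 10, 12 and 13 and low-dose arrays 27, 28, 33 and 40, with changes from 0.29 to 0.33 and adjusted p from 0.0503 to 0.0853.

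The low-dose and saline dSPN groups share no run, so the block on runs links them only through the runs of mock-operated and high-dose arrays. With that block Wnt7a (-1.46, adjusted p = 0.0021) and Wnt2 (-1.16, 0.0368) kept their calls, and Wnt8b (-1.44, 0.114) and Lrp6 (0.25, 0.503) did not. The glial lists moved as at the high dose: 6 of 7 oligodendrocyte markers fell, with the summed level at 10.33 to 11.58. Of 8 astrocyte markers 4 fell, with the sum at 8.39 to 9.88. Among all genes 34.1% were called at this dose and 19% fell. Of 5 iSPN markers 3 fell (median -0.67, summed level 11.35 to 11.79), of 8 dSPN markers 2 rose and 1 fell (13.84 to 14.16), and 1 of 5 endothelial and mural markers fell, and their part was not tested. With the glial covariates Wnt7a (-1.59, adjusted p = 9.48e-06), Wnt2 (-1.01, 0.0163) and Lrp6 (0.70, 0.000231) kept their calls and Wnt8b (-1.13, 0.107) did not.

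The 2 doses were then compared directly. In dSPN no member differed between high and low levodopa by limma, against 6.8% of all genes, and 3 members had an unadjusted p under 0.05. The differences ran from -0.58 to 0.35. For Wnt7a the 95% interval of the high minus low difference was -0.64 to 0.22, and for Lrp6 it was -0.0072 to 0.52. In iSPN no member differed either, against 0.173% of all genes, with 4 at an unadjusted p under 0.05 and differences from -0.92 to 0.52.

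The lesion was then compared with mock surgery, both with saline. In dSPN 1 of 37 was called (2.7%), against 2.48% of all genes. Wnt8b was 4.01, 6.19 and 8.18 in mock-operated and 3.26, 4.42 and 5.68 in lesioned mice, and fell by 1.70 (SE 0.41, adjusted p = 0.00816). All 11 lesioned arrays lay below the mock median, but the mock arrays spread over about 4 log2 units (SD 1.38). Within run 1, with 5 lesioned and 4 mock arrays, the difference was -0.99, and with the block on runs it was -1.15 (adjusted p = 0.517). The second Wnt8b probe set changed by -0.37, which was not called. Of 5 iSPN markers 1 rose after lesion in dSPN, and the log2 of their sum was 10.91 to 11.29 in mock-operated and 11.34 to 11.81 in lesioned mice, with no overlap. Of 8 astrocyte markers 1 rose (9.19 to 10.23 against 9.70 to 10.53), and no marker of the other lists was called. With the glial covariates Wnt8b kept its call (-1.76, adjusted p = 0.0112), and the part of the iSPN markers was not tested.

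In iSPN the lesion changed 4 of 37 members (10.8%), against 6.2% of all genes. Of the 4, 1 was higher and 3 were lower, against 3.19% and 3.01% of all genes. Wnt7a fell by 1.71 (SE 0.25, adjusted p = 9.7e-07), a 3.28-fold lower level, and every lesioned array lay below every mock array. Wnt8b was 4.45, 7.23 and 8.34 in mock-operated and 3.54, 4.02 and 7.49 in lesioned mice and fell by 2.11 (SE 0.46, adjusted p = 0.00144). Its second probe set fell by 0.77. Wnt2 was 6.01, 6.54 and 7.46 against 3.77, 5.67 and 6.44 and fell by 1.35 (SE 0.30, adjusted p = 0.00135), with all 7 lesioned arrays below the mock median. The member that rose was Tcf7l1, a Tcf factor known mostly as a repressor of Wnt target genes.

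Tcf7l1 was 3.91, 4.28 and 5.11 in mock-operated iSPN and 5.45, 5.86 and 6.93 after lesion and saline. The groups did not overlap, as for 0.671% of all genes, and the rise was 1.65 (SE 0.30, adjusted p = 5.08e-05), or 3.14-fold. A second probe set gave a rise of 1.69. In iSPN with low levodopa its level was 3.81, 6.11 and 6.83, and with high levodopa it was 3.97, 5.38 and 6.18, and neither dose group was called against lesioned saline. In dSPN the medians of Tcf7l1 lay between 4.16 and 4.58 in all 4 groups.

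Mock and lesioned iSPN arrays share few runs, and the block on runs leaves little to compare. With it Wnt7a kept its call (-2.23, adjusted p = 0.000728), while Tcf7l1 (1.36, 0.222), Wnt8b (-2.36, 0.127) and Wnt2 (-0.76, 0.677) did not. With array weights Wnt2 was also not called (-0.97, adjusted p = 0.0784). No glial marker was called after lesion in iSPN, and with the glial covariates all 4 members kept their calls. Of 8 dSPN markers 4 fell in iSPN after lesion, and the log2 of their sum went from 11.29 to 11.97 in mock-operated to 10.66 to 11.60 in lesioned mice. The summed level of 4 cholinergic markers, of which Chat lay below the filter, was 6.44 to 8.19 in mock-operated and 6.86 to 8.37 in lesioned iSPN, and none of 3 tested was called. Of 5 iSPN markers 1 rose, with summed levels of 13.99 to 14.37 in mock-operated and 14.00 to 14.38 in lesioned iSPN. The part of these marker lists in the changes of Wnt7a, Wnt2, Wnt8b and Tcf7l1 was not tested.

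**Figure D2:**
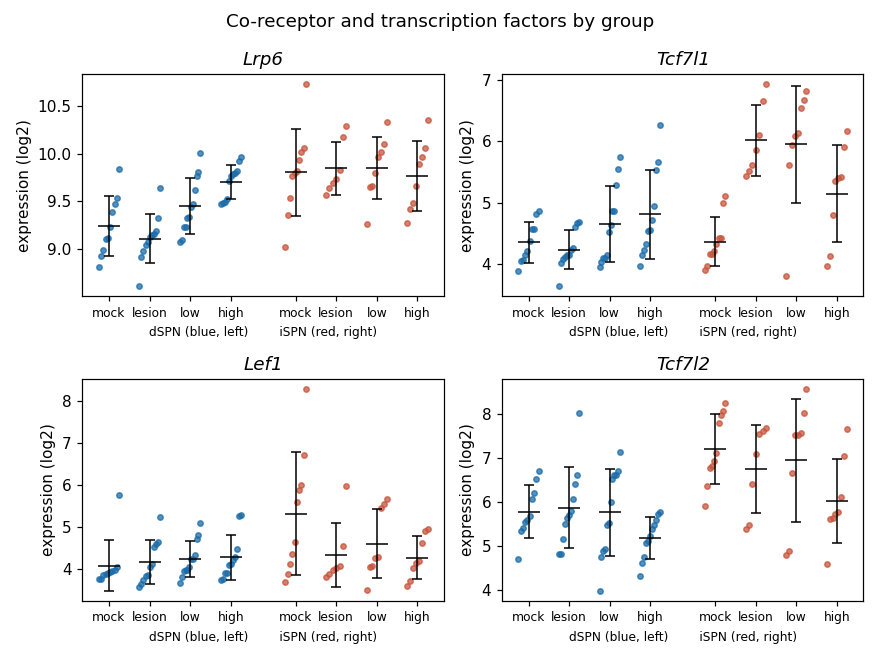
Expression level (log2) of the co-receptor Lrp6 and the transcription factors Tcf7l1, Lef1 and Tcf7l2 on each array (points), with group mean and SD (black bars), in the 4 groups of dSPN (blue) and iSPN (red). Tcf7l1 in iSPN has a median of 4.28 in mock-operated mice and 5.86 after lesion, and Lrp6 in dSPN goes from a median of 9.13 with saline to 9.77 with high levodopa.

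Levodopa gave few calls among the members in iSPN, where the groups compared held 7 to 8 arrays. Some changes were large but not called. Wnt8b had a mean of 4.75 with saline, 3.27 with low levodopa (-1.48) and 3.70 with high levodopa (-1.06). Fzd1 changed by 1.04 at the low dose, also without a call. At the high dose 1 of 37 was called (2.7%), against 9.86% of all genes. Wnt10a, a ligand known from tooth and skin development, was 3.10, 3.40 and 3.79 with saline and 3.32, 3.87 and 5.39 with high levodopa, a rise of 0.73 (SE 0.20, adjusted p = 0.00964). The groups overlapped and 6 of 8 arrays lay above the saline median. The mean of Wnt10a over all arrays was 3.57, just above the filter level of 3.55. Its highest group mean was 4.09, with high levodopa in iSPN, and without that group its mean lies below the filter level. Wnt10a was therefore tested only because of the group in which it was called higher. The call was lost without high-dose array 59 (0.54, adjusted p = 0.0534), when iSPN arrays were fitted alone (0.0618) and with the block on runs (0.213). Within run 6, with 8 high-dose and 2 saline arrays, the difference was 0.79. Of 8 dSPN markers 2 rose and 3 fell at the high dose in iSPN, with summed levels of 10.66 to 11.60 with saline and 11.04 to 11.58 with high levodopa, and their part was not tested. No marker of the other lists was called.

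At the low dose in iSPN 1 of 37 was called (2.7%), against 4.18% of all genes. Wnt5b, a ligand known mostly for signalling without beta-catenin, was 3.40, 3.70 and 4.21 with saline and 3.54, 4.63 and 6.59 with low levodopa, a rise of 1.12 (SE 0.32, adjusted p = 0.0252). The low-dose arrays were widely spread (SD 1.14), and 6 of 8 lay above the saline median. Its second probe set changed by 0.25 without a call. The call was lost without low-dose array 69, 70 or 78 or saline array 77 (changes 0.88 to 1.07, adjusted p 0.0522 to 0.0965). It was also lost when iSPN arrays were fitted alone (adjusted p = 0.209), with the glial covariates (0.0537) and with the block on runs (0.0947). Within run 7, with 8 low-dose and 4 saline arrays, the difference was 1.09. Of 8 dSPN markers 2 rose and 1 fell at the low dose in iSPN (11.04 to 11.57), and 1 of 4 GABA interneuron markers rose (8.04 to 9.19 with saline, 8.91 to 10.64 with low levodopa). The part of either list was not tested.

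**Figure D3:**
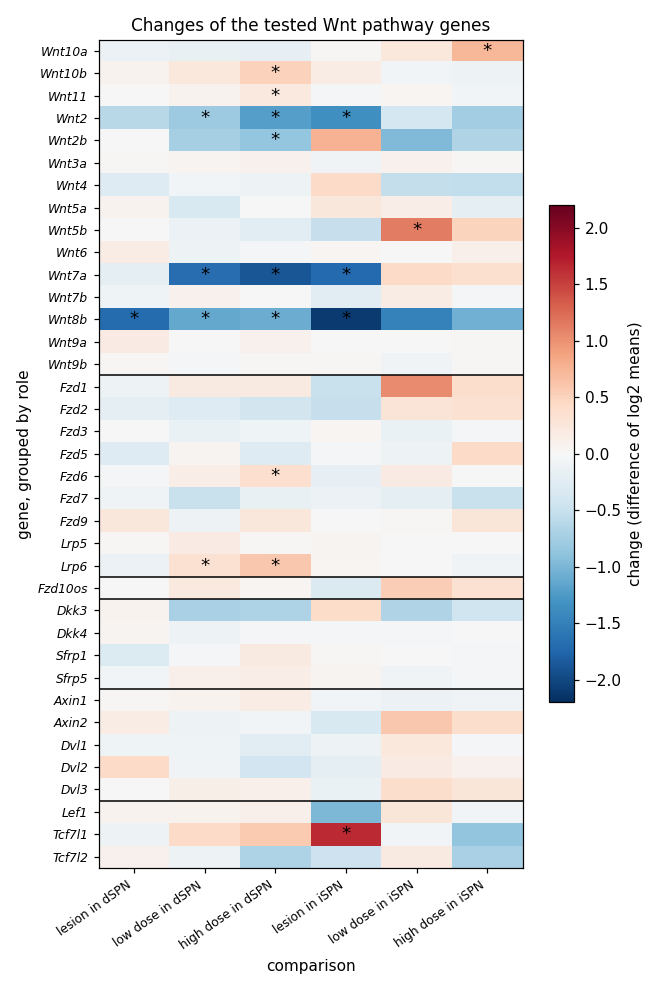
Change of each of the 37 tested genes (rows, grouped by role from ligands at the top to transcription factors at the bottom) in 6 comparisons (columns), as the difference of log2 means; lesion is lesioned saline against mock and each dose is against lesioned saline. Stars mark an adjusted p below 0.05, and of the 11 genes with a star 8 are ligands, led by Wnt7a, Wnt8b and Wnt2. Of the 37 tested genes 15 are ligands, and the count of stars was not made for all genes.

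Whether the change itself differed between the neuron types was tested with the difference of both changes, dSPN minus iSPN. For the lesion 2 members differed (5.41%), against 4.86% of all genes. Tcf7l1 changed by -0.12 in dSPN against 1.65 in iSPN, which differ by -1.77 (SE 0.40, adjusted p = 0.00185). Wnt7a changed by -0.21 and -1.71, a difference of 1.50 (SE 0.34, adjusted p = 0.00213). With the block on runs the difference of Tcf7l1 was -1.07 (adjusted p = 0.557) and that of Wnt7a 1.86 (0.0451). Wnt8b fell in both lines, and the test of its difference did not pass. For the lesion the change also differed for 1 of 5 iSPN, 1 of 8 astrocyte and 1 of 4 GABA interneuron markers, each positive, and with the glial covariates Wnt7a (1.46, adjusted p = 0.00546) and Tcf7l1 (-1.68, 0.00576) kept their calls.

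For high levodopa 5 of 37 differed (13.5%), against 25% of all genes. Wnt7a changed by -1.88 in dSPN against 0.36 in iSPN, which differ by -2.24 (SE 0.35, adjusted p = 3.81e-07). Tcf7l1 changed by 0.57 and -0.87, neither of them called, with a difference of 1.44 (SE 0.40, adjusted p = 0.00462). The differences of Wnt10a (-0.90, adjusted p = 0.00526), Lrp6 (0.68, 0.0117) and Wnt10b (0.62, 0.0376) followed, and for the second Lrp6 probe set the difference was 1.07 (adjusted p = 0.101). That of Wnt10b lost its call without any single one of 10 arrays, which were dSPN saline array 19, dSPN high-dose arrays 21, 22, 23 and 39, iSPN saline arrays 55, 65 and 68 and iSPN high-dose arrays 66 and 67 (0.55 to 0.61, adjusted p 0.0508 to 0.0752). As said above, Wnt10a passed the filter only through the high-dose iSPN group. With the block on runs Wnt7a (-2.61, adjusted p = 1.13e-05) and Wnt10a (-0.96, 0.0386) were called, and Lrp6 (0.41, 0.341), Tcf7l1 (1.39, 0.057) and Wnt10b (0.81, 0.0558) were not. The high-dose change also differed for 4 of 7 oligodendrocyte markers and 1 of 8 astrocyte markers, all negative, and for 4 of 5 iSPN markers (1 positive, 3 negative). It differed as well for 1 of 8 dSPN, 1 of 4 ependymal (both positive) and 1 of 4 GABA interneuron markers (negative). With the glial covariates Wnt7a (-2.19, adjusted p = 3.24e-06), Lrp6 (0.95, 0.000133), Wnt10a (-1.11, 0.000893) and Tcf7l1 (1.31, 0.018) kept their calls and Wnt10b (0.57, 0.0723) did not. The part of the neuronal and ependymal markers was not tested.

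For low levodopa 2 of 37 differed (5.41%), against 14.8% of all genes. Wnt7a changed by -1.67 in dSPN against 0.42 in iSPN, which differ by -2.10 (SE 0.34, adjusted p = 3.56e-06). Wnt5b differed by -1.25 (SE 0.41, adjusted p = 0.0266), with -0.36 for its second probe set (adjusted p = 0.252), and lost its call without iSPN low-dose array 69, 70 or 78 (-1.10, -1.11 and -1.003, adjusted p 0.0592, 0.0576 and 0.0704) and with the block on runs (-0.90, adjusted p = 0.419). The low-dose change also differed for 5 of 7 oligodendrocyte markers, all negative, for 2 of 5 iSPN markers (1 positive, 1 negative) and for 1 of 4 GABA interneuron markers (negative). With the glial covariates Wnt7a kept its call (-2.05, adjusted p = 8.65e-05) and Wnt5b did not (-1.17, 0.083). The part of the neuronal markers was not tested.

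**Figure D4:**
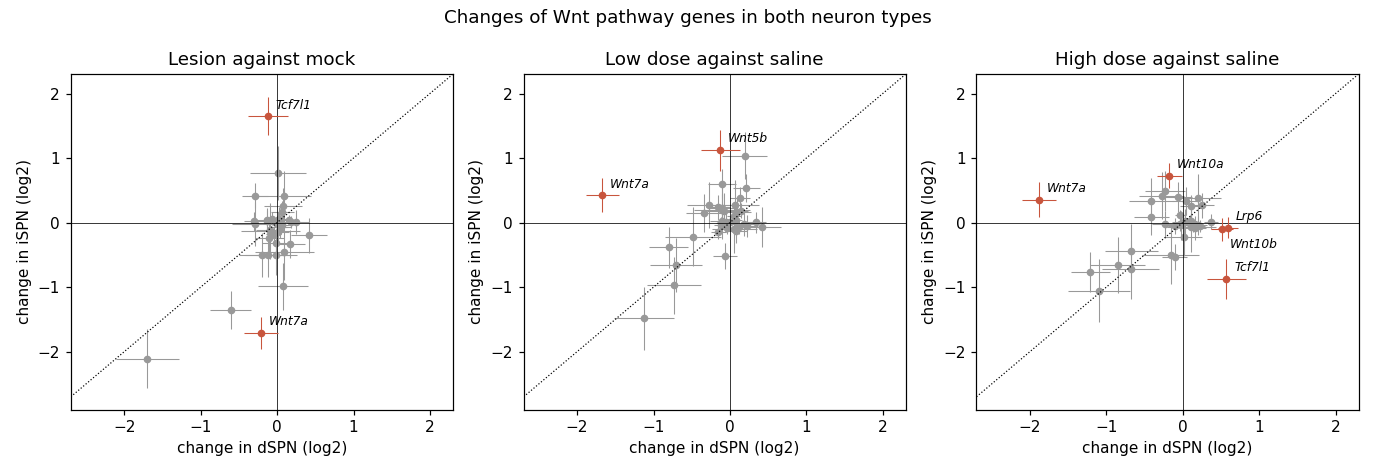
Change in dSPN (horizontal, log2) against change in iSPN (vertical, log2) for each of the 37 tested genes, with SE bars, for lesion against mock, low dose against saline and high dose against saline; the dotted line marks equal change. Red, named genes are those whose dSPN minus iSPN difference was called, with Wnt7a far from the dotted line in all 3 panels (differences 1.50, -2.10 and -2.24).

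The neuron types were also compared at baseline. In mock-operated mice 9 of 37 members were called between the lines (24.3%), close to the 22.5% of all genes. Of the 9, 2 were higher and 7 lower in dSPN, against 11.6% and 10.9% of all genes. Wnt7a was lower in dSPN by 1.21 (SE 0.23, adjusted p = 4e-05), with no overlap between 10 and 10 arrays, as for 2.28% of all genes. Both Tcf7l2, the main Tcf factor of many adult neurons and of oligodendrocyte maturation, and Lef1, which activates Wnt target genes, were lower in dSPN. Tcf7l2 was 4.70, 5.64 and 6.70 in dSPN and 5.90, 7.02 and 8.24 in iSPN, which differ by -1.42 (SE 0.40, adjusted p = 0.00516), and its second probe set differed by -1.10. Lef1 was 3.76, 3.92 and 5.77 in dSPN and 3.69, 5.13 and 8.29 in iSPN, which differ by -1.24 (SE 0.34, adjusted p = 0.00406).

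Among receptors, Fzd7, which carries signals through beta-catenin in many stem cells, was 2.71, 3.38 and 4.75 in dSPN and 2.54, 4.96 and 6.63 in iSPN, and was lower in dSPN by 1.26 (SE 0.39, adjusted p = 0.0131). The dSPN group means of Fzd7, 2.84 to 3.42, lay below the filter level of 3.55, and its iSPN means were 4.05 to 4.67. It therefore passed the filter through iSPN, the line in which it is higher. Fzd1 was lower by 1.00 (adjusted p = 0.0126) and Lrp6 by 0.56 (0.00179). Fzd3, a receptor known for axon guidance, was 9.62, 9.92 and 10.14 in dSPN against 9.04, 9.50 and 9.66 in iSPN, and was higher by 0.47 (SE 0.10, adjusted p = 0.00035). For Fzd3, 4 of 6 probe sets were called, while the second probe sets of Fzd7 (-0.05) and Lrp6 (-0.32) were not. The Fzd1 call was lost without mock iSPN array 48 (-0.76, adjusted p = 0.0567). Axin1, the scaffold of the destruction complex, was lower by 0.65 (adjusted p = 0.0012), although its second probe set differed by 0.13. Sfrp1, a secreted inhibitor, was 4.69, 5.06 and 5.59 in dSPN against 4.27, 4.41 and 5.06 in iSPN and was higher by 0.63 (SE 0.13, adjusted p = 0.000184), with all 10 dSPN arrays above the iSPN median, and its second probe set differed by 0.36 without a call.

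Line and run cannot be told apart, since every run lies within 1 line. Fitted on the 20 mock-operated arrays alone, 6 of the 9 calls held, and Fzd1 (adjusted p = 0.0534), Fzd7 (0.0522) and Lef1 (0.0704) did not. Of 7 oligodendrocyte markers 5 were lower in mock dSPN, with summed levels of 11.48 to 12.35 in dSPN and 12.13 to 13.52 in iSPN. Of 8 astrocyte markers 2 were lower (9.19 to 10.23 against 9.41 to 10.97), and all 3 tested cholinergic markers were lower (5.59 to 6.32 against 6.44 to 8.19). With the glial covariates the calls of Wnt7a (-1.16), Axin1 (-0.64), Sfrp1 (0.68) and Fzd3 (0.43) held. Tcf7l2 (-0.72, adjusted p = 0.306), Lrp6 (-0.27, 0.238), Fzd1 (-0.81, 0.134), Fzd7 (-0.93, 0.184) and Lef1 (-0.95, 0.0929) were not called. In mock dSPN 1 of 5 microglial markers and 1 of 4 GABA interneuron markers were also lower. The part of the cholinergic, microglial and GABA interneuron markers was not tested.

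The remaining members showed no called change. Of the 37 tested genes 26 were not called in any of the 6 lesion and dose comparisons, and 19 in none of the 12 comparisons made. For 12 of those 26, every one of the 6 changes lay within 0.3 log2 units of 0. The same counts over several comparisons were not made for all genes, so they cannot be set against a general share. In 4 genes a dimmer probe set was called where the brightest was not: Tcf7l2 (-0.87, adjusted p = 0.00909) and Wnt6 (0.28, 0.00604) at the high dose in dSPN, Wnt5a (-0.63, 0.0139) at the low dose in dSPN, and Fzd2 (0.56, 0.0462) between the doses in dSPN. The dimmer Wnt6 probe set also differed between the lines at the high dose (0.39, adjusted p = 0.0274). For Fzd2 and Wnt6 the brightest probe set went the other way in the same comparison. That of Fzd2 changed by -0.13, and that of Wnt6 had a mean of 5.15 with saline and 5.12 with high levodopa. Dvl1, Dvl2 and Dvl3, which carry the signal from the receptor, had changes between -0.41 and 0.42 on their brightest probe sets. At the high dose in dSPN the brightest Dvl2 probe set changed by -0.41. The second Dvl2 probe set changed there by 0.47, the opposite sign, without a call by limma (adjusted p = 0.051). Axin2, a feedback gene switched on by beta-catenin in many tissues, was at medians of 8.52 to 8.55 in the 3 lesioned dSPN groups and had changes between -0.33 and 0.60. Among ligands Wnt3a, Wnt6, Wnt9a and Wnt9b had changes from -0.11 to 0.18. Dkk3, a divergent member of the Dkk family, changed by up to -0.70 without a call, and Lef1 by -0.99 after lesion in iSPN, also without a call. Among genes below the filter, the inhibitor Dkk2 was singled out after its values were seen: it was 2.49, 2.72 and 5.73 in lesioned dSPN with saline, 2.89, 4.33 and 5.97 with low and 3.14, 3.97 and 6.60 with high levodopa, with overlapping groups and no test.

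Other genes of the pathway were counted from a list of 68 extracellular, membrane, cytoplasmic and nuclear components, of which 58 were tested. This list and the list of target genes below were drawn up with earlier results of these data known. At the high dose in dSPN 12 rose and 12 fell (41.4%, against 45.6% of all genes), and the list's median change was 0.0066, against -0.036 over all genes. The largest rises were those of Shisa2, which holds immature Frizzled receptors inside the cell (5.05, SE 0.24, adjusted p = 5.28e-30), the Dishevelled-binding Dact1 (2.43), the beta-catenin co-activator Bcl9 (2.19) and Rspo1 (1.98), a secreted enhancer of Wnt signals. Further genes of the list, named after their values were seen, were the ubiquitin ligases Znrf3 (-1.50) and Rnf43 (-1.17), which remove Frizzled receptors, and Cxxc4 (-1.49), a Dishevelled inhibitor. Of kinases that act on beta-catenin, Csnk1a1 rose by 0.70 and Gsk3b fell by 0.58.

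**Figure D5:**
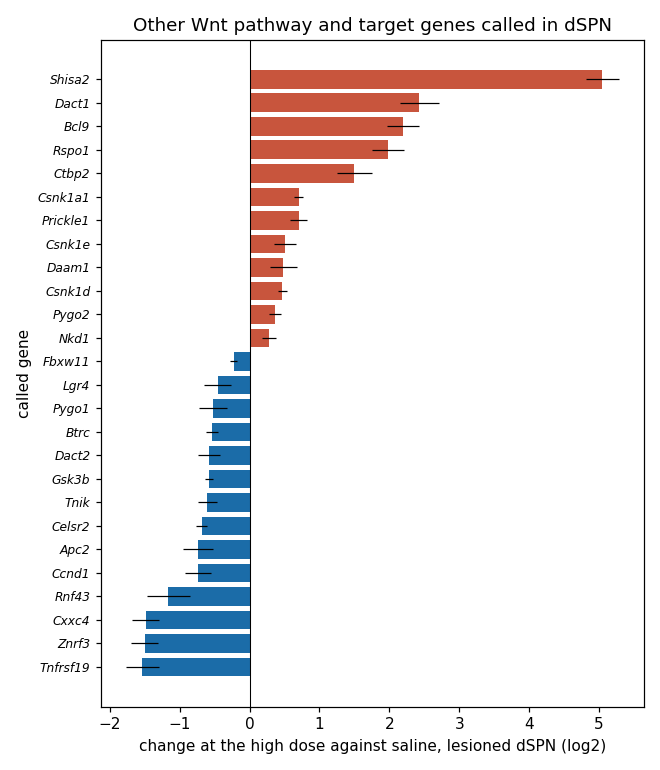
Change at the high dose against saline in lesioned dSPN (log2, bars, with SE) for the genes of the other pathway and target lists whose adjusted p was below 0.05; red bars rose and blue bars fell. Shisa2 stands furthest right at 5.05 and Tnfrsf19 furthest left at -1.53.

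At the low dose in dSPN 9 of 58 rose and 12 fell (36.2%, against 34.1%), with a median of -0.025 against -0.037 over all genes. Shisa2 (4.40), Rspo1 (1.53), Bcl9 (1.35) and Dact1 (1.31) had the largest changes. Between the doses in dSPN, 5 of 58 were higher and 2 lower at the high dose (12.1%, against 6.8%), led by Dact1 (1.12), the co-repressor Ctbp2 (0.96), Bcl9 (0.85) and Cxxc4 (-0.70). Rspo1 was the only one of the 58 called after lesion in dSPN, where it fell by 0.98 (adjusted p = 0.00861), a share of 1.72% against 2.48% of all genes. In iSPN the lesion raised 3 and lowered 2 (8.62%, against 6.2%): Shisa2 (1.43), the Dkk receptor Kremen1 (1.16) and Dact2 (0.67) rose, and Apc2 (-0.85) and Prickle2 (-0.51) fell. With high levodopa in iSPN Dact1 (1.18) and Prickle2 (0.37) rose and the receptor-like polarity gene Celsr2 (-0.34) and the co-repressor Tle4 (-0.31) fell (6.9%, against 9.86%). With low levodopa Dact1 (1.19) was the 1 gene of 58 called (1.72%, against 4.18%).

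The differences between lines were called for 4 of these 58 after lesion, with 1 positive and 3 negative (6.9%, against 4.86% of all genes), for 20 at the high dose, with 10 each way (34.5%, against 25%), and for 15 at the low dose, with 6 positive and 9 negative (25.9%, against 14.8%). For the lesion those of Shisa2 (-2.16), Kremen1 (-1.19), Dact2 (-0.85) and Prickle2 (0.71) were called. For the high dose Shisa2 (4.92), Bcl9 (2.50), Rspo1 (1.76) and Ctbp2 (1.50) had the largest differences, and for the low dose Shisa2 (4.36), the receptor Ror1 (-1.70), the Apc-binding Amer1 (-1.49) and Bcl9 (1.07). In mock-operated mice 4 of 58 were higher and 9 lower in dSPN (22.4%, against 22.5%), and the largest differences were those of Ror1 (-1.19), the polarity gene Celsr3 (-0.91), Dact2 (0.86) and the co-repressor Tle3 (0.83). Znrf3, Rnf43 and Nkd1 are also on the target list.

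A list of 20 genes known as Wnt targets in other tissues had 10 tested. At the high dose in dSPN 1 rose and 4 fell (50%, against 45.6% of all genes), with a median change of -0.27. The falls were those of the receptor Tnfrsf19 (-1.53), Znrf3 (-1.50), Rnf43 (-1.17) and the cell-cycle gene Ccnd1 (-0.74), and Nkd1 rose by 0.27. At the low dose 5 fell and none rose (50%, against 34.1%), with a median of -0.60, led by Znrf3 (-1.06), Tnfrsf19 (-1.04), Rnf43 (-1.02) and Ccnd1 (-0.72). After lesion in iSPN Tnfrsf19 fell (-0.86, adjusted p = 0.0446) and no other listed target was called, and after lesion in dSPN none was called. The change of Tnfrsf19 (-1.93), Znrf3 (-1.45) and Ccnd1 (-0.75) differed between the lines at the high dose, and that of Znrf3 (-1.05) at the low dose. The target genes that differed between the lines in mock-operated mice were Lef1 and Fzd7, which are members.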

How the data were processed

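RNA from TRAP of single mice was measured on 77 Affymetrix 430 2.0 arrays. The authors deposited log2 values per probe set, made with RMA and the affy package per the submitters' processing notes, whose versions are not given in the sources used here. RMA corrects background and equalises the arrays' distributions, so levels are relative. Array medians lie between 4.31 and 4.42, and no read depth applies: the number of arrays limits the precision.

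Of 45101 probe sets 34958 had 1 symbol in the platform annotation, 932 several and 9211 none. The first kind was used, and 34754 of them matched the gene table by Entrez ID. A gene was read from its single-symbol probe set with the highest mean and tested where that mean was above the 40th percentile of all probe sets (3.55). limma 3.58.1 in R 4.3.3 fitted 8 group means to all 77 arrays (69 residual degrees of freedom), two-sided, with Benjamini-Hochberg adjustment over 13271 genes. The script was tested on simulated data. Each mouse gave 1 array.

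The members and lists were chosen with earlier results of these data known. Members called in any of 12 comparisons are described. The 4 highest and 4 lowest called changes of a comparison get group values. Other probe sets above the filter are given where they differ. Probe sets below the filter were not tested and are mostly not given. Up to 4 called genes with the largest change are named per list, unless the text says that a gene was chosen after its values were seen.

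Alternatives were the run as a block, each line alone, no filter, array weights, quantile normalization, glial covariates and testing every probe set. After seeing the data, leaving out each array, mock arrays alone and within-run differences were added. Promoters came from the RefSeq table for GRCm38.p6, which held 12 of the 18 described members.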

Additional observations from a re-analysis of the deposited data

Results flagged for a closer look

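In groups of 4 to 10 arrays, a single array stood apart from the rest of its group by Dixon's test in 13 of 90 groups of described members. The nominal rate of the test is about 1 in 20 for independent normal values. These groups share arrays and come from genes picked by their calls, and all genes were not counted, so no excess is read from this. In mock iSPN these were the lowest Fzd3 array (9.04) and the highest Fzd6 (5.08), Wnt2b (8.82) and Wnt5b (6.60) arrays. In mock dSPN they were the highest Fzd7 (4.75), Lef1 (5.77) and Wnt10a (4.83) arrays and the lowest Wnt10b array (3.14). In lesioned iSPN they were the highest Lef1 array with saline (5.99), the highest Wnt8b array with high levodopa (6.36), and with low levodopa the lowest Tcf7l1 array (3.81) and the highest Wnt10a (4.26) and Wnt10b (4.62) arrays.

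The change differed between the neuron types, by the test of dSPN minus iSPN, in 9 cases. For the lesion they were Wnt7a (1.50, adjusted p = 0.00213) and Tcf7l1 (-1.77, 0.00185). For high levodopa they were Wnt7a (-2.24, adjusted p = 3.81e-07), Tcf7l1 (1.44, 0.00462), Wnt10a (-0.90, 0.00526), Lrp6 (0.68, 0.0117) and Wnt10b (0.62, 0.0376). Of these, Wnt10a passed the filter only through the high-dose iSPN group. For low levodopa they were Wnt7a (-2.10, adjusted p = 3.56e-06) and Wnt5b (-1.25, 0.0266).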

How the results depend on the processing

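No alternative reversed a called change of a described member. The Wnt7a calls, all on its brightest probe set, held under every alternative that could be fitted. With the run as a block 14 of 28 calls of single genes held and 14 did not. Members called became 0 for the lesion and 2 for the low dose in dSPN, against 0.663% and 13.9% of all genes. In iSPN they became 1 for the lesion and 0 for the low dose, against 0.799% and 3.54% of all genes. For the dSPN minus iSPN differences of lesion, high and low dose they became 1, 2 and 1. The shares of all genes there were 1.12%, 15.7% and 5.3%. The line difference could not be fitted with that block. With glial covariates 24 of 37 calls held, and the number became 4 for the high dose in dSPN, 0 for the low dose in iSPN and 4 for the lines in mock-operated mice. With each line on its own arrays it became 0 for the high and 0 for the low dose in iSPN (4.35% and 1.15% of all genes). With array weights it became 3 for the high dose in iSPN, against 8.74% of all genes. With no filter 36 of 37 calls held, with array weights 36, with quantile normalization 35 and with every probe set tested 37. Leaving out single arrays gave 7 to 9 members called for the high dose in dSPN, 3 to 5 for the low dose in dSPN, 4 to 5 for the lesion in iSPN, 0 to 2 and 0 to 3 for the high and low dose in iSPN, 4 to 5 and 1 to 3 for the high-dose and low-dose differences, and 8 to 11 for the lines. It left 1 for the lesion in dSPN, 2 for the lesion difference and 0 for either comparison of doses. Counts without single arrays were not made for all genes. No paired analysis was possible because no groups share replicate numbers. With arrays, signal near background limits dim genes: Wnt10a and Wnt10b had group medians close to the filter level, as had Wnt8b in the levodopa groups. Fzd7 had dSPN group means below that level. The cause of the changes under the alternatives was not tested.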
